A study of Mus musculus with 7 samples.

Results

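The genes described here are the members of the HoxA, HoxB and HoxD clusters, read in the order of their paralogue numbers in mouse skin tumours. They were chosen by name, as 29 listed genes of the 55423 features in the count table, with 10 genes in HoxA (Hoxa2 to Hoxa13), 10 in HoxB (Hoxb1 to Hoxb13) and 9 in HoxD (Hoxd1 to Hoxd13). All 29 were found in the table, and 24 passed the filter of at least 5 reads in at least 1 tumour. The 5 that did not pass, and so were not tested, were Hoxb1, Hoxb13, Hoxd1, Hoxd3 and Hoxd12.

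Bulk RNA was sequenced, after removal of ribosomal RNA, from cutaneous squamous cell carcinomas of 2 genotypes. Ivl:BRAFV600E mice carried a tamoxifen-inducible Cre under the involucrin promoter, which is active in differentiating keratinocytes, and expressed oncogenic BRAF after recombination. Ivl:BRAFV600E-SOX2LSL mice carried in addition the LSL-SOX2-IRES-eGFP allele at Rosa26, so that recombined cells also expressed SOX2 and eGFP. Both groups received topical tamoxifen at an age of 7 to 10 weeks and had the same oncogene. The comparison asks what differs in tumours of the involucrin lineage when SOX2 is also expressed from Rosa26. The study reports SOX2 protein in endpoint Ivl:BRAFV600E tumours too, so the contrast is not of presence against absence. The transgenes were driven in 1 epithelial population, while the RNA came from the whole tumour. Tumours of 3 mice per genotype were used, 2 females and 1 male for Ivl:BRAFV600E and 2 males and 1 female for Ivl:BRAFV600E-SOX2LSL, called BRAF tumours 1 to 3 and SOX2 tumours 1 to 3 below. Tumours were taken at the clinical endpoint, and every SOX2 tumour was collected earlier after induction than every BRAF tumour, so time and genotype cannot be told apart. The study describes lesions of Ivl:BRAFV600E mice at several sites, among them back, paws, ears and lips. The body site of each tumour sequenced is not given in the sources used here.

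Hox genes encode homeodomain transcription factors that stand in a fixed order along 4 chromosomal clusters. Genes at the 3′ end of a cluster, with low paralogue numbers, are used in anterior parts of the embryo, and genes at the 5′ end, with high paralogue numbers, in posterior and distal parts such as the digits. Adult skin keeps part of this order, so that fibroblasts and some epithelia of different body sites carry different sets of Hox transcripts. Polycomb proteins keep unused Hox genes silent, trithorax proteins keep used ones active, and the TALE homeodomain proteins Pbx, Meis and Pknox bind DNA together with Hox proteins.

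Between 23565432 and 31152826 reads fell on genes in each tumour. Levels are CPM, counts per 1000000 reads after TMM scaling of the library sizes, and 3 counts, taken as the smallest level that can be told from 0, came to between 0.0839 and 0.143 CPM. Sox2 had 0.716, 0.508 and 0.238 CPM in BRAF tumours 1 to 3 and 182, 155 and 158 CPM in SOX2 tumours 1 to 3, so that every library matched its label. Defining keratinocyte markers were abundant in all 6 tumours, with Krt5 between 2371 and 3900 CPM and Trp63 between 261 and 321 CPM, while the differentiation keratins were lower in SOX2 tumours without overlap, Krt1 with 32201 to 45416 against 1010 to 13012 CPM and Krt10 with 28863 to 36342 against 425 to 7214 CPM (edgeR adjusted p = 0.149 and 0.0935). SOX2 tumour 1 stood apart at many genes, and values with and without it are given for each result that rests on it.

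The 250 bases before the transcription start of 4 members are shown because their genes are examples of 4 of the patterns found in these tumours, with every CpG in capitals. Hoxa2 was higher in all SOX2 tumours, Hoxa5 was high in SOX2 tumour 1, Hoxa13 was read in BRAF tumours and in no SOX2 tumour, and Hoxd8 was read in every tumour. Sequences are from RefSeq on GRCm38.p6, 5′ to 3′ on the strand of the gene.
Hoxa2 promoter (chr6:52164832-52165081, minus strand): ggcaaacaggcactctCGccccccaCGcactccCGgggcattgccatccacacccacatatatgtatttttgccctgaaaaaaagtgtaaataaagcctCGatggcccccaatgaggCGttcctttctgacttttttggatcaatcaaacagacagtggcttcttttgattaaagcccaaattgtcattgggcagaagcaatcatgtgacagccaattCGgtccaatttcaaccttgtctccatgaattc
Hoxa5 promoter (chr6:52204588-52204837, minus strand): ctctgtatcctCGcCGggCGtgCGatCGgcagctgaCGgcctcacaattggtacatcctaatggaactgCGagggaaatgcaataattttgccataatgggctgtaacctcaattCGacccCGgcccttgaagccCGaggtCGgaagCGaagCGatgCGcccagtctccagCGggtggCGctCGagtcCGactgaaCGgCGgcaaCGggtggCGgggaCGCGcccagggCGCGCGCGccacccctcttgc
Hoxa13 promoter (chr6:52260881-52261130, minus strand): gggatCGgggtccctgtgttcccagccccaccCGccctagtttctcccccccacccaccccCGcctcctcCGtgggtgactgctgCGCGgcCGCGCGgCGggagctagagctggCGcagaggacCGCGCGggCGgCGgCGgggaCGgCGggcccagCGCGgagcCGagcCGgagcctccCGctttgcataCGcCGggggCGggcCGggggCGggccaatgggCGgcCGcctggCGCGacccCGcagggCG
Hoxd8 promoter (chr2:74704365-74704614, plus strand): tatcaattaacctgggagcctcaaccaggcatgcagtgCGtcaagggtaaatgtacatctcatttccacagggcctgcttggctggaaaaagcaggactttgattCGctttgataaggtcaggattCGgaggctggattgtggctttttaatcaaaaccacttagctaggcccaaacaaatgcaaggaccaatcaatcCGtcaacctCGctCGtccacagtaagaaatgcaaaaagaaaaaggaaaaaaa

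These 4 windows hold 6 CpGs (Hoxa2), 28 CpGs (Hoxa5), 35 CpGs (Hoxa13) and 6 CpGs (Hoxd8). The reference had a promoter for 21 of the 29 members, 23 promoters in all, whose CpG number ran from 2 to 35 with a median of 13, beside a median of 6 over all 32851 promoters of that length. Their median GC content was 58.0%, against 52.4% over all promoters. A match to AACAATG, letters bound by SOX proteins, was searched on both strands and occurred in 0 of the 23 member promoters and in 3.29% of all promoters. No match says only that these letters are absent from these windows.

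Of the 24 members tested, 1 rose and 1 fell in the SOX2 tumours. Hoxa2 rose, and Hoxa13 fell to 0 reads in all 3 SOX2 tumours. With edgeR's quasi-likelihood test and an adjusted p below 0.05 over all genes, 3.90% of the 24433 genes tested were called, 2.39% as higher and 1.51% as lower, against 2 of 24 members (8.33%). The levels of the 2 groups did not overlap for 8 of the 24 members (33.3%), 5 higher and 3 lower in SOX2 tumours, and the same was true of 34.2% of all genes tested, so this count was near the background. The median log2 fold change over the 24 members was 1.61, also when the members at 0 in a group were set to their bound. Over all genes it was 0.04, and 19 members were above 0 and 5 below. Of the 19, Hoxa2, Hoxa3, Hoxa4, Hoxa6, Hoxb8 and Hoxd4 reached 5 reads in SOX2 tumours only. Of the 5, Hoxa11, Hoxa13, Hoxd11 and Hoxd13 reached them in BRAF tumours only. Passing the filter largely set the direction of these genes, so their signs are not separate evidence of a shift. Without SOX2 tumour 1 the median over the 22 members still tested was -3.81 as fitted, with 8 above 0 and 14 below. Of these, 8 had no read in SOX2 tumours 2 and 3, and with those set to their bound against 3 counts per library, or to 0 where the BRAF mean was under it, the median was -0.70. The sign of the typical member thus rested on 1 tumour. Because the RNA is from whole tumours, fewer cells of a type and less RNA per cell cannot be told apart for any of these genes.

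**Figure D1:**
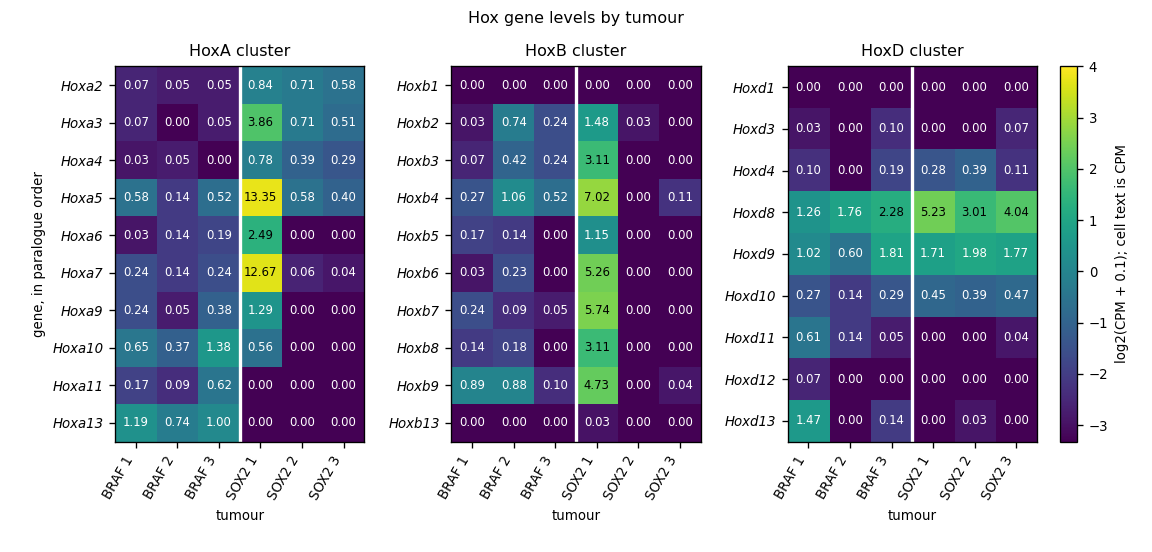
Heat map of the 29 genes by cluster, with genes in paralogue order down each panel and the 6 tumours across, the white line dividing BRAF from SOX2 tumours. Colour is log2(CPM + 0.1) and the text in each cell is CPM. SOX2 tumour 1 is the highest of the 6 tumours from Hoxa2 to Hoxa9 and from Hoxb2 to Hoxb9, SOX2 tumours 2 and 3 have reads at Hoxa2 to Hoxa5 and hardly any in HoxB, and Hoxa13 has reads in BRAF tumours alone.

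The anterior end of HoxA was read in every SOX2 tumour and hardly at all in BRAF tumours. Hoxa2 (ENSMUSG00000014704, chr6:52162417-52164831 on GRCm38, minus strand), which patterns the hindbrain and the second pharyngeal arch, had 2, 1 and 1 counts in BRAF tumours 1 to 3 and 30, 22 and 16 counts in SOX2 tumours 1 to 3. These are 0.068, 0.046 and 0.048 CPM against 0.839, 0.713 and 0.578 CPM. All SOX2 tumours were above all BRAF tumours, each of which was below the level of 3 counts. The difference came to 3.59 on the log2 scale, with a standard error of 0.52 and an edgeR adjusted p of 0.0238, with 68 counts over the SOX2 tumours and 4 over the BRAF tumours. The exact 95% interval of the ratio of these counts, scaled for depth, was 4.84 to 49.0, which covers counting error alone. Without SOX2 tumour 1 the log2 fold change was 3.44 (edgeR adjusted p = 0.0254), so the call did not rest on that library. It was lost without BRAF tumour 1, 2 or 3 (adjusted p = 0.119, 0.0891 and 0.0658) and without SOX2 tumour 2 (0.0627), with log2 fold changes of 3.50 to 3.80.

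Hoxa3, which is needed for the thymus and parathyroid, had 0.068, 0 and 0.048 CPM in BRAF tumours and 3.86, 0.713 and 0.506 CPM in SOX2 tumours. Hoxa4 had 0.034, 0.046 and 0 CPM against 0.783, 0.389 and 0.289 CPM. The groups did not overlap for either gene, and SOX2 tumour 1 was the highest for both. The edgeR adjusted p was 0.0546 for Hoxa3 (log2 fold change 5.23, standard error 1.15) and 0.0518 for Hoxa4 (3.95, standard error 0.85), so neither passed the threshold. Without SOX2 tumour 1, Hoxa3 passed it (3.75, adjusted p = 0.0446) and Hoxa4 did not (3.41, adjusted p = 0.0875). Summed over Hoxa2, Hoxa3 and Hoxa4, the BRAF tumours had 5, 2 and 2 counts and the SOX2 tumours 196, 56 and 38 counts. Hoxa2 shares exon sequence with Gm28308, Hoxa3 with Gm28308 and 4 other models, and Hoxa4 with the antisense model Gm29430. The strand setting of the counting is not stated, so reads of these genes and their neighbours could not be separated. In all, 13 of the 29 members have this limit, with Hoxa7, Hoxa9, Hoxa11, Hoxb2, Hoxb3, Hoxb5, Hoxd3, Hoxd4, Hoxd10 and Hoxd11. Hoxb3 shares 2250 of its 4251 exon bases and Hoxa11 shares 800 of 2287.

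The opposite end of HoxA had the reverse pattern. Hoxa13 (ENSMUSG00000038203, chr6:52257694-52260880, minus strand), the last gene of the cluster and a factor of the digits, palms, soles and genital tract, had 35, 16 and 21 counts in BRAF tumours and 0, 0 and 0 in SOX2 tumours. In CPM the BRAF tumours had 1.19, 0.739 and 0.998, each of them well above the floor of 3 counts. The mean was at least 10.1-fold lower in SOX2 tumours, taking 3 counts per library as the floor, with an edgeR adjusted p of 0.0238. It passed without SOX2 tumour 1 as well (adjusted p = 0.0129), and no other gene model overlaps its exons. Without BRAF tumour 1, 2 or 3 the adjusted p was 0.123, 0.0815 and 0.0669, above the threshold, with fitted log2 fold changes of -7.58, -8.00 and -7.82 against -7.77 with all tumours.

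Hoxa11, a factor of the forearm and uterus, was chosen for mention after its values were seen. It had 5, 2 and 13 counts in BRAF tumours and 0 in each SOX2 tumour, at least 3.04-fold lower (edgeR adjusted p = 0.0975). Hoxa10, which patterns the lumbar axis and the uterus, had 0.648, 0.37 and 1.38 CPM in BRAF tumours and 0.56, 0 and 0 CPM in SOX2 tumours. Its groups overlapped through SOX2 tumour 1, which lay between BRAF tumours 2 and 1 (SOX2 mean 0.234 of the BRAF mean, edgeR adjusted p = 0.36). With that tumour left out, Hoxa10 had no read in the SOX2 group, at least 7.77-fold lower, and the adjusted p was 0.036, so 1 library decided whether Hoxa10 was called.

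**Figure D2:**
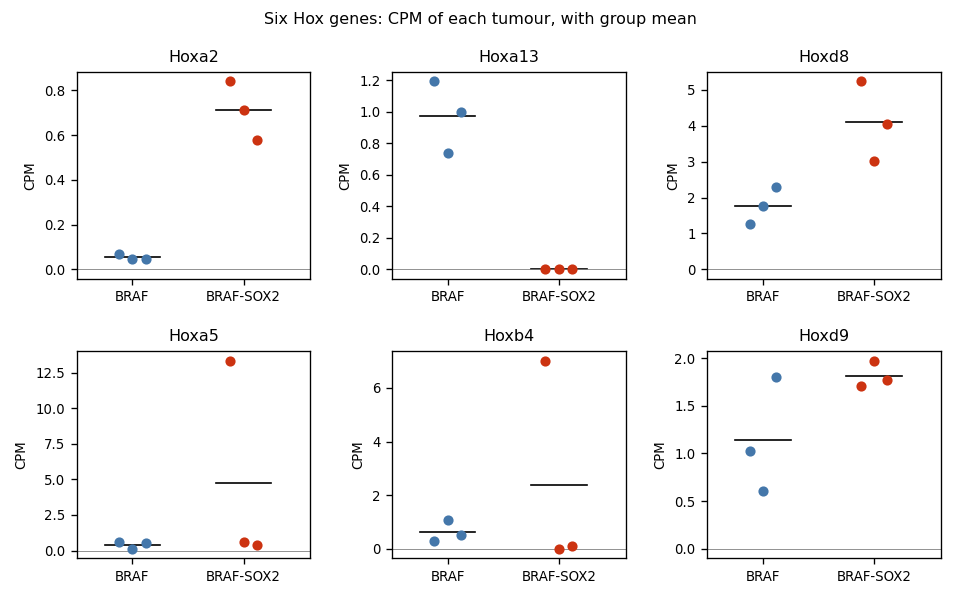
CPM on linear axes for 6 members, with 1 point per tumour and a line at the group mean (BRAF blue, BRAF-SOX2 red). Hoxa2, Hoxa13 and Hoxd8 separate the groups, Hoxa5 and Hoxb4 have 1 high SOX2 tumour, at 13.3 and 7.02 CPM, and Hoxd9 overlaps.

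The middle of HoxA and most of HoxB were high in SOX2 tumour 1 alone. Hoxa5, a factor of the lung and the cervical and upper thoracic axis, had 0.58, 0.139 and 0.523 CPM in BRAF tumours and 13.3, 0.583 and 0.397 CPM in SOX2 tumours. SOX2 tumours 2 and 3 lay within or just above the BRAF range, while SOX2 tumour 1 was 22.8 times the next tumour. With all tumours the log2 fold change came to 3.50 ± 1.40 (SE, edgeR adjusted p = 0.174), and without SOX2 tumour 1 to 0.23 (adjusted p = 0.868).

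Hoxa6 had 0.034, 0.139 and 0.19 CPM in BRAF tumours and 2.49, 0 and 0 CPM in SOX2 tumours. Hoxa7 had 0.239, 0.139 and 0.238 CPM in BRAF tumours and 12.7, 0.065 and 0.036 CPM in SOX2 tumours. Hoxa9, which also acts in blood progenitors, had 0.239, 0.046 and 0.38 CPM against 1.29, 0 and 0 CPM. For all 3 genes SOX2 tumour 1 was the highest tumour and SOX2 tumours 2 and 3 were below every BRAF tumour. The edgeR adjusted p was 0.37, 0.214 and 0.732, and none was called. Without SOX2 tumour 1 the log2 fold change of Hoxa7 was -1.92, Hoxa9 had no read in the SOX2 group (at least 2.16-fold lower), neither was called, and Hoxa6 did not pass the filter.

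HoxB followed SOX2 tumour 1 along its length from Hoxb2 to Hoxb9, genes of the hindbrain, neck and thoracic axis. Hoxb2 had 0.034, 0.739 and 0.238 CPM in BRAF tumours and 1.48, 0.032 and 0 CPM in SOX2 tumours. Hoxb3 had 0.068, 0.416 and 0.238 CPM against 3.11, 0 and 0 CPM. Hoxb4, known for its action in blood stem cells, had 0.273, 1.06 and 0.523 CPM against 7.02, 0 and 0.108 CPM. In each of these genes SOX2 tumours 2 and 3 were the lowest of the 6 tumours. Hoxb5 had 0.171, 0.139 and 0 CPM in BRAF tumours and 1.15, 0 and 0 CPM in SOX2 tumours, and Hoxb6 had 0.034, 0.231 and 0 CPM against 5.26, 0 and 0 CPM. Hoxb7 had 0.239, 0.092 and 0.048 CPM against 5.74, 0 and 0 CPM. BRAF tumours were all below the 1 high SOX2 tumour and at or above the other two. Hoxb8 had 0.136, 0.185 and 0 CPM against 3.11, 0 and 0 CPM, and Hoxb9 had 0.887, 0.878 and 0.095 CPM against 4.73, 0 and 0.036 CPM. The groups overlapped for all 8 genes.

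Summed over Hoxb2 to Hoxb9, BRAF tumours had 54, 81 and 24 counts, SOX2 tumour 1 had 1129, SOX2 tumour 2 had 1 and SOX2 tumour 3 had 4. None of the 8 was called, with edgeR adjusted p between 0.267 and 0.826. Their log2 fold changes were all above 0, from 0.65 for Hoxb2 to 4.31 for Hoxb6, with standard errors of 1.55 to 2.22. Without SOX2 tumour 1, the fitted values of the 7 that could still be tested were all below 0, and none was called (adjusted p between 0.0882 and 0.358). Of these 7, Hoxb3, Hoxb5, Hoxb6 and Hoxb7 had no read in SOX2 tumours 2 and 3. Against 3 counts per library Hoxb3 was at least 2.34-fold lower, while the BRAF means of the other 3 were close to or under that floor, so little or no fold can be given for them. Hoxb1, the anterior end of the cluster, had no read in any tumour, and Hoxb13, its isolated posterior end, had 1 read in SOX2 tumour 1.

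A rule set after these values were seen counted genes at more than 1 CPM and more than 5 times the level of every other tumour. In SOX2 tumour 1 it held for 11 members of the 24 tested (45.8%), namely Hoxa3, Hoxa5, Hoxa6, Hoxa7 and Hoxb3 to Hoxb9, where 1.02% of all genes tested met it. In BRAF tumour 1 it held for 1 member, Hoxd13, against 0.115% of all genes, and in the remaining 4 tumours for none. The ratios to the next tumour in SOX2 tumour 1 ran from 5.33 for Hoxb9 to 53.1 for Hoxa7. These are values of 1 library, with no replicate.

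**Figure D3:**
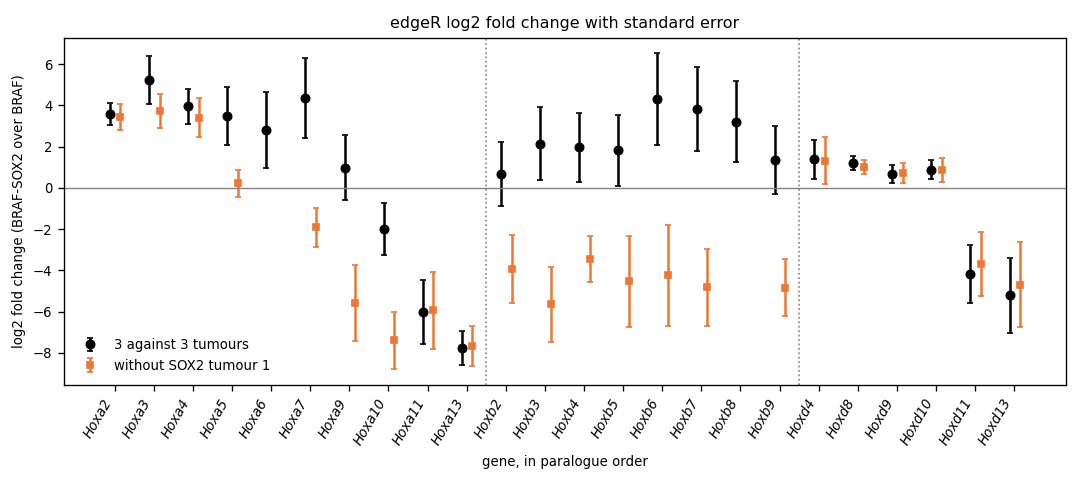
Log2 fold change from edgeR (SOX2 over BRAF tumours) with its standard error for the members tested, in paralogue order within HoxA, HoxB and HoxD, for all tumours (black circles) and without SOX2 tumour 1 (orange squares). Hoxa2 (3.59 and 3.44) and Hoxd9 (0.67 and 0.71) move little between the fits and Hoxa3 goes from 5.23 to 3.75, while the 7 genes of Hoxb2 to Hoxb9 that have both values pass from above 0 to below 0 and Hoxb8 has no value in the second fit. Squares of genes with no read in SOX2 tumours 2 and 3 depend on the prior count and give no size of fold.

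HoxD was the most even of the clusters, with reads at Hoxd8 and Hoxd9 in all 6 tumours. Hoxd8 had 1.26, 1.76 and 2.28 CPM in BRAF tumours and 5.23, 3.01 and 4.04 CPM in SOX2 tumours. Every SOX2 tumour was above every BRAF tumour, and the log2 fold change came to 1.22 ± 0.33 (SE), yet the edgeR adjusted p was 0.084. Hoxd9 had 1.02, 0.6 and 1.81 CPM against 1.71, 1.98 and 1.77 CPM, with BRAF tumour 3 inside the SOX2 range (log2 fold change 0.67, standard error 0.42, adjusted p = 0.354). Hoxd10, chosen after its values were seen, had 8, 3 and 6 counts against 16, 12 and 13 counts, with no overlap in CPM but an adjusted p of 0.289. Hoxd4 was at 0 to 0.389 CPM in all tumours and was not called.

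At the posterior end of HoxD, which with Hoxa13 patterns the digits, reads came mainly from BRAF tumour 1. Hoxd13 had 1.47, 0 and 0.143 CPM in BRAF tumours and 0, 0.032 and 0 CPM in SOX2 tumours. It was high in 1 BRAF tumour and at or below 3 counts in the other 5 (edgeR adjusted p = 0.136). Hoxd11, also named after its values were seen, had 18, 3 and 1 counts against 0, 0 and 1, and its groups did not overlap in CPM, though BRAF tumour 3 and SOX2 tumour 3 had 1 read each (adjusted p = 0.123). Hoxd12 had 2 reads in BRAF tumour 1 and none elsewhere. Hoxd1 had no read, and Hoxd3 had 3 reads in BRAF tumours and 2 in SOX2 tumours.

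The last gene of a cluster with more than 3 counts differed between tumours. In HoxA it was Hoxa13 in all 3 BRAF tumours, Hoxa10 in SOX2 tumour 1 and Hoxa5 in SOX2 tumours 2 and 3. The first such gene was Hoxa5, Hoxa10 and Hoxa5 in BRAF tumours 1 to 3 and Hoxa2 in every SOX2 tumour. In HoxB the last was Hoxb9, Hoxb9 and Hoxb4 in the BRAF tumours and Hoxb9 in SOX2 tumour 1, and no gene of HoxB exceeded 3 counts in SOX2 tumours 2 and 3. In HoxD it was Hoxd13, Hoxd9 and Hoxd10 in the BRAF tumours and Hoxd10 in all 3 SOX2 tumours. SOX2 tumour 1 had 20 of the 29 members above 3 counts, SOX2 tumours 2 and 3 had 8 and 7, and the BRAF tumours had 16, 10 and 14.

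Scaled by exon length as well as depth (RPKM), the member with the highest level was Hoxd13 in BRAF tumour 1 (0.591), Hoxd8 in BRAF tumour 2 (0.64) and Hoxd9 in BRAF tumour 3 (0.845). It was Hoxa5 in SOX2 tumour 1, at 7.11 RPKM, followed by Hoxa7 at 4.41 and Hoxb7 at 3.71 RPKM. In SOX2 tumours 2 and 3 it was Hoxd8, at 1.1 and 1.47 RPKM, followed by Hoxd9 at 0.925 and 0.828 RPKM and Hoxa2 at 0.401 and 0.326 RPKM. These clusters were thus read at a low level in the BRAF tumours, where no member exceeded 2.28 CPM, beside a median of 2.42 CPM over all genes tested.

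For comparison, the HoxC cluster carried most of the Hox transcripts of the BRAF tumours, with 63.7, 70.2 and 64.9 summed CPM against 9.96, 8.13 and 10.4 over the 29 members. In SOX2 tumours HoxC had 39, 4.41 and 4.7 CPM and the 29 members 75.1, 8.29 and 8.45 CPM. Of its 9 genes, 4 fell (Hoxc10, Hoxc11, Hoxc12 and Hoxc13) and none rose. Over Hoxc4 to Hoxc8 SOX2 tumour 1 was high there too, with 37 summed CPM against 8.22 to 9.89 CPM in BRAF tumours, while over Hoxc9 to Hoxc13 it had 2.04 CPM against 55.5 to 60.3 CPM. Hoxc8, in the first of these groups, had 2.18, 2.73 and 2.28 CPM in BRAF tumours and 12.3, 0 and 0 CPM in SOX2 tumours. Hoxc10, at the same paralogue position as Hoxa10 and Hoxd10, had 12.2, 13.9 and 10.1 CPM in BRAF tumours and 0.028, 0 and 0 CPM in SOX2 tumours (edgeR adjusted p = 0.00184).

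Other gene models lie inside the 3 clusters, mostly antisense and other non-coding RNAs. There were 34, of which 12 were tested and none was called by edgeR, while 4 had an unadjusted p below 0.05. Hoxaas2, which shares 503 exon bases with Hoxa3 on the opposite strand, had 0.034, 0 and 0.048 CPM in BRAF tumours and 0.504, 0.227 and 0.253 CPM in SOX2 tumours (adjusted p = 0.0746). Gm53, in HoxB, had 0.034, 0.231 and 0.238 CPM against 5.46, 0.097 and 0.144 CPM. Reads of Hoxaas2 and Hoxa3 cannot be told apart there without strand, and Gm53 had 1 high tumour, as the HoxB genes did.

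Of the genes that flank the clusters, 8 of 10 were tested and 1 was called. Skap2, an adaptor protein gene on the side of HoxA where Hoxa2 lies, had 8.59, 9.33 and 10.4 CPM in BRAF tumours and 57.8, 39.4 and 37.5 CPM in SOX2 tumours. All SOX2 tumours were above all BRAF tumours (log2 fold change 2.25, standard error 0.21, edgeR adjusted p = 0.0075). Snx10, a sorting nexin gene beyond it, had 2.11, 1.62 and 3.14 CPM against 16.3, 6.61 and 4.41 CPM, also without overlap (1.99, adjusted p = 0.0765). Hibadh, on the far side beyond Hoxa13, had 28.9 to 31.7 CPM against 30 to 37.1 CPM (0.10, adjusted p = 0.685). No tested gene on the outer sides of HoxB and HoxD was called.

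Among the partners of Hox proteins, Meis2 rose, as 1 of 9 TALE cofactors tested, with 4.5, 4.71 and 4.47 CPM in BRAF tumours and 14, 11.9 and 15.2 CPM in SOX2 tumours. The groups were far apart, by 1.59 ± 0.18 (SE) on the log2 scale (edgeR adjusted p = 0.0125). The other 8 TALE genes were not called. Of the 9, 3 had an unadjusted edgeR p below 0.05. For 4 of the 9 (44.4%) the groups did not overlap, all higher in SOX2 tumours, against 34.2% of all genes in either direction. Pknox2, 1 of these 4, had 0.034, 0.462 and 0.285 CPM against 1.9, 2.04 and 0.795 CPM (edgeR adjusted p = 0.0963). The median log2 fold change of the 9 was 0.31, against 0.04 over all genes.

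Of 12 trithorax genes and H3K27 demethylases none was called by edgeR, with 1 at an unadjusted p below 0.05, and Gmnn was not called. The Cdx genes, which act upstream of Hox genes in the embryo, had no read in any tumour, and of their ParaHox relatives Gsx1 had 5.68 CPM in SOX2 tumour 1 and no read in the other 5.

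**Figure D4:**
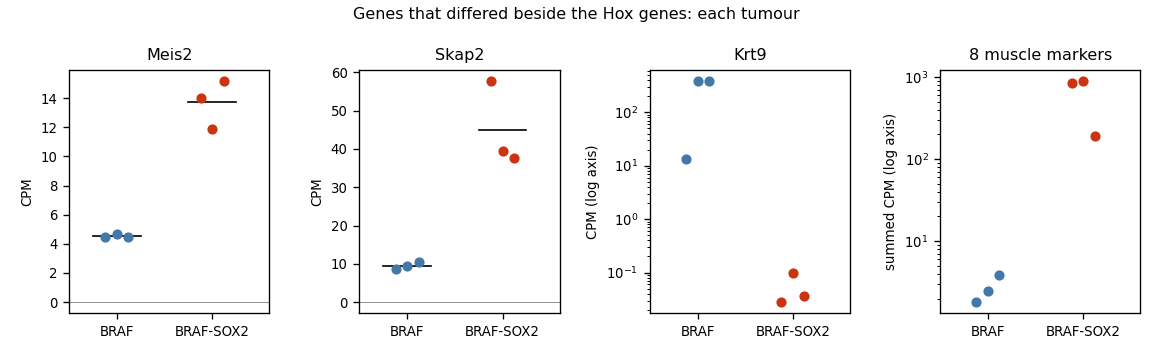
Each tumour's level of Meis2, Skap2 and Krt9 and the summed level of 8 skeletal muscle markers in CPM (BRAF blue, BRAF-SOX2 red). The first 2 panels have linear axes with a line at the group mean, the last 2 have log axes without a mean. No panel has an overlap between groups, and Krt9 spans 0.028 to 390 CPM.

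Marker genes of body sites and of other cell types were read in the same libraries. Krt9, the keratin of the thick skin of paws, had 13.6, 390 and 378 CPM in BRAF tumours and 0.028, 0.097 and 0.036 CPM in SOX2 tumours (log2 fold change -12.14, standard error 1.67, edgeR adjusted p = 0.0209). It was the 1 gene called of 10 limb and paw markers, whose summed level was 92.5 to 550.5 CPM in BRAF tumours and 63.3 to 87 CPM in SOX2 tumours. Krt9 made up most of that gap, and the other 9 genes summed to 79 to 161 CPM against 63.2 to 86.9 CPM, with overlap. Of the 10 genes, 5 had a log2 fold change above 0 and 5 below. En1, which marks ventral paw skin, had 14, 47 and 14.1 CPM against 3.53, 0.583 and 0.325 CPM (adjusted p = 0.0618). In the other direction, Pitx1, a hindlimb factor, had 25.6, 29.8 and 31.4 CPM against 43.7, 32.4 and 41.9 CPM (adjusted p = 0.145), and Tbx2 had a log2 fold change of 3.17 (adjusted p = 0.0815). Of 7 head, lip and mouth markers tested 1 was called, the palate keratin Krt76, with 2.05, 3 and 0.855 CPM in BRAF tumours and 0.084, 0.259 and 0.144 CPM in SOX2 tumours (adjusted p = 0.0335). The list as a whole summed to 22.7 to 41.5 CPM against 115 to 246 CPM. Krt13, a keratin of the mouth lining, made up most of the SOX2 sums, with 2.86, 28.6 and 3.04 CPM against 158, 236 and 96.4 CPM (adjusted p = 0.0707). Trunk skin markers summed to 7.44 to 20.1 CPM against 17.3 to 53.2 CPM, and none of the 4 tested was called by edgeR, with 2 at an unadjusted p below 0.05. The part of body site in the Hox levels was not tested.

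Skeletal muscle markers rose, 7 of 8, and their summed level was 1.81 to 3.85 CPM in BRAF tumours and 841, 904 and 193 CPM in SOX2 tumours 1 to 3. Of 6 immune markers 1 rose, the leukocyte gene Ptprc (adjusted p = 0.0483), with summed levels of 33.3 to 46.4 CPM against 63.9 to 113 CPM. Fibroblast markers summed to 726 to 5028 CPM in BRAF tumours and 3891 to 8177 CPM in SOX2 tumours, with the highest value in SOX2 tumour 1, and none of 6 was called by edgeR (1 at an unadjusted p below 0.05). Keratinocyte markers summed to 84922 to 130749 CPM in BRAF tumours and to 13118, 49234 and 45047 CPM in SOX2 tumours 1 to 3, with the lowest value in SOX2 tumour 1, and none of 7 was called (2 at an unadjusted p below 0.05). The adipocyte list summed to 16.4 to 43.7 CPM in BRAF tumours and 10.8 to 49 CPM in SOX2 tumours, with overlap. Of its 3 genes, 2 had a log2 fold change above 0 and 1 below. Among them Adipoq, which was not called, had no read in BRAF tumours and 4.2, 0 and 0.108 CPM in SOX2 tumours. None of the endothelial, melanocyte, nerve and adipocyte lists, of 4, 5, 4 and 3 genes tested, had a gene called (2, 1, 0 and 1 at an unadjusted p below 0.05). Their part in the Hox levels was not tested.

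Other settings changed the number of members called. DESeq2 gave no adjusted p to 11 of the 24 members, among them Hoxa5 to Hoxa7, Hoxb4 and Hoxb6 to Hoxb9, which had 1 high tumour. It called 6 of the other 13, adding Hoxa3, Hoxa4, Hoxd8 and Hoxd13 to the pair called by edgeR, against 18.2% of all genes with an adjusted p. With library sizes unscaled 5 were called (8.08% of all genes), with no low-count filter 4 of 27 (5.24%), and without SOX2 tumour 1 4 of 22 (6.69%), these being Hoxa2, Hoxa3, Hoxa10 and Hoxa13. With sex as a covariate no member was called (adjusted p = 0.0654 for Hoxa2 and 0.0661 for Hoxa13), nor was any when 1 BRAF tumour was left out. With sex in the fit 0.933% of all genes were called, and without BRAF tumour 1, 2 or 3 0.0918%, 0.207% and 0.738%. The log2 fold changes with sex in the fit were 3.48 for Hoxa2 and -7.78 for Hoxa13.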

How the data were processed

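RNA of 6 tumours, 3 per genotype, was analysed. Per the labels and the methods of the study, reads were checked with FastQC 0.11.8, trimmed with Trim Galore, aligned to GRCm38 with HISAT2 2.1.0 and assigned to genes with featureCounts (Subread 1.6.3). The authors deposited raw read counts per gene, without normalisation. Strand and multimapping settings are not given in the sources used here. Of 7 columns, 6 were tied to a genotype by the mouse names in the study's source data, and 1 column was not used. The labels give 4 samples of Ivl:BRAFV600E, of which 3 could be tied to a column. The tumours are numbered by column order, and each came from a separate mouse.

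A gene was tested if any 1 tumour had 5 reads or more (24433 genes). The test was run with edgeR 4.0.16 (R 4.3.3, TMM, quasi-likelihood test, genotype as the factor, Benjamini-Hochberg adjustment over all genes, threshold 0.05). The script was tested on simulated counts. RPKM used merged exons of GENCODE M21. The floor was set at 3 counts, and intervals and floors cover counting error, since PCR copies are not independent molecules. An exact permutation test of 3 against 3 tumours cannot go below 0.1. Alternatives were DESeq2 1.42.0, limma 3.58.1 (voom), 3 other scalings, 2 other filters, sex as a covariate and each tumour left out. Python 3.11.15 with pandas 2.3.3 and matplotlib 3.10.9 served for tables and plots.

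The members, gene lists and tests were chosen with earlier results of these data known. Values per tumour are given for members called by edgeR or by another of these fits of all tumours, and for members at 1 CPM or more in any tumour (20 members). List genes with an adjusted p below 0.05 are named, except that muscle genes are given as a sum. A result that this rule would name is not reported here. Homeodomain sequences were not used here.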

Additional observations from a re-analysis of the deposited data

How the results depend on the processing

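The count of 2 members called was the same with limma-voom, DESeq2 size factors, upper-quartile scaling and filterByExpr. It was 6 with DESeq2, 5 with library sizes unscaled, 4 with no low-count filter and 0 with sex as a covariate. With single tumours left out it ran from 0 (without BRAF tumour 1, 2 or 3) to 4 (without SOX2 tumour 1), with 1 without SOX2 tumour 2. Hoxa2 was called in 9 of 14 alternatives (adjusted p from 0.00155 to 0.119) and Hoxa13 in 10 of 14 (2.19e-06 to 0.123). With library sizes unscaled, the median log2 fold change over the genes tested moved from 0.04 to 0.39. No paired analysis was possible because the columns carry no replicate number.

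Of 258 alternative values with an adjusted p for the 20 members named, 220 kept direction and side of the threshold, 11 passed it and 9 lost it, and 18 reversed direction, none of them at a called gene. With limma-voom the log2 fold change was -0.13 for Hoxa6, -1.26 for Hoxa9, -0.65 for Hoxb2, -0.82 for Hoxb3, -0.93 for Hoxb4, -0.27 for Hoxb5 and -1.38 for Hoxb9. With sex as a covariate it was -0.42 for Hoxa9 and -0.47 for Hoxb2. With each tumour left out it ran from -1.92 to 4.92 for Hoxa7, -5.57 to 1.54 for Hoxa9, -3.94 to 1.99 for Hoxb2, -5.65 to 2.81 for Hoxb3, -3.44 to 2.60 for Hoxb4, -4.54 to 2.41 for Hoxb5, -4.24 to 6.22 for Hoxb6, -4.83 to 4.69 for Hoxb7 and -4.85 to 1.93 for Hoxb9, where every lowest value is that without SOX2 tumour 1, the tumour in which these genes were high. Fitted values against SOX2 tumours at 0 reads depend on the prior count and are no bounds. The cause of the other changes was not tested. Depth limits the genes at 3 counts or fewer, and 3 tumours per group limit all tests.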
